A study of Rattus norvegicus with 8 samples.

Results

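Kidney allografts from donors much lighter than their recipients were compared with grafts from donors of similar weight, on 4 of the 8 arrays of a rat transplantation series. The 4 arrays were chosen by their labels: 2 untreated high-difference grafts and 2 untreated low-difference grafts, given as biological replicates. The other 4 arrays, of treated grafts, served to estimate the spread, and they also counted in the filter of genes and the choice of probes. Donors were lighter by 20 to 50% of the recipient's weight for the high-difference group, and by 0 to 20% for the low-difference group. Donors of both groups were Dark Agouti rats (RT1a) and recipients were male Lewis rats (RT1l) from a stock of 120 to 250 g. Both of the recipient's own kidneys had been removed, so the graft was the only kidney, and it carried a foreign major histocompatibility complex (MHC). Each donor kidney was cooled with University of Wisconsin solution, kept for 25 min at 4 °C and taken out again 24 h after transplantation. Recipients of these 4 grafts received neither of the drugs used in the series, which were 500 µg of an antibody to the interleukin-6 receptor and 15 mg/kg of prednisolone, each given to recipients of high-difference grafts. The labels give neither the ages nor the weight of any single animal.

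A kidney graft that has been cold, without blood and then reperfused shows injury first in its proximal tubules, which reabsorb most of the filtrate and depend on mitochondrial fat oxidation. Injured tubule cells are known to switch on stress programmes driven by the factors ATF4 (amino acid and translation stress) and NRF2 (oxidative stress), to lose transporters and metabolic enzymes, and to express keratins and growth factors of repair. Alloreactive T and natural killer (NK) cells and monocytes enter an MHC-mismatched graft within days and bring interferon-gamma, which induces MHC and chemokine genes in the graft. The comparison asks how the weight difference relates to the state of the graft on the first day.

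Levels are log2 signals relative to the 75th percentile of their own array, so that 0 is that percentile. Of 34911 genes on the array, 24436 were tested, a gene being tested where some group of the series had both of its arrays well above background for the probe, and 12473 of these carried a gene symbol. At an adjusted p under 0.05, limma called 0 genes (0% of those tested), so every difference below is a measured value that did not pass the test across all genes unless another fit is named. The lowest adjusted p was 0.0773, and at an unadjusted p under 0.05 there were 2013 genes higher and 1571 genes lower in high-difference grafts. A second reading asked whether both high-difference arrays lay at least 1 log2 unit beyond both low-difference arrays, with the brighter group well above background. Among the 16159 genes with a symbol, 89 genes were higher by this measure (0.551%) and 341 genes were lower (2.11%). Of the lower genes 168 were dim, meaning not well above background, on at least 1 high-difference array. Of the higher genes 18 were dim on at least 1 low-difference array. This measure is called a clear gap below. Among tested genes with a symbol, both high-difference arrays lay above both low-difference arrays for 32.3%, and below both for 25.4%, and the median log2 difference was 0.05. Of the same genes, 53.9% had a log2 difference above 0. The p-values measure the spread between 2 grafts of a group, and this number limits the precision of every value.

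The arrays were not equally alike within groups. High-difference array 1 correlated across the 24436 tested genes more closely with low-difference array 2 (r = 0.985) than with high-difference array 2 (r = 0.981), and for 51.5% of the tested genes with a symbol its level lay nearer to low-difference array 2. High-difference array 2 stood farthest from the low-difference arrays (r = 0.958 and 0.967). The labels were used as given, and an exchange of 2 arrays, which would change what every difference between the groups means, was not tested. All 4 arrays lay on 1 slide. The high-difference arrays had 66.5% and 65.3% of their spots well above background, against 71.7% and 72.1% on the low-difference arrays. A patch at the edge of high-difference array 2 was dark: of 217 tested genes whose spot lay there, 44 were at least 3 log2 units under the lowest of the other untreated arrays, against 18 of 24219 genes elsewhere on that array and 0 of 217 on each other untreated array. Of the genes named below, 1 lay in it and is named as such. For genes with a symbol that were dim in every group, the median log2 difference was 0.62, and genes of this kind are given below without a fold. Markers of kidney were present on all 4 arrays: the tubule genes Lrp2, Umod, Slc12a1, Slc12a3 and Aqp2 and the podocyte gene Nphs1 were well above background on each. The B cell marker Ms4a1, the urothelial marker Upk3a and the neutrophil receptor gene Cxcr2 were not well above background on any of the 4. Of 20 genes on the neutrophil list, though, 8 were well above background on all 4.

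The genes farthest apart between the groups included enzymes of detoxification, stress factors and repair genes on the high side. Cyp3a9, a steroid-metabolising cytochrome P450, had log2 levels of 0.17 and -0.19 in high-difference grafts, against -3.81 and -3.86 in low-difference grafts. Its log2 difference was 3.83 ± 1.14 (SE pooled over the 4 groups, n = 2 per group, adjusted p = 0.308). The prednisolone arrays, at -0.17 and -4.08, entered this SE, which was 0.33 without them. Akr1b8, an aldo-keto reductase, had log2 levels of 2.63 and 3.28 in high-difference grafts, against -1.61 and 0.07 in low-difference grafts. For both genes the high-difference arrays lay above the low-difference arrays by more than the range within either group. Fosl1, a subunit of the AP-1 transcription factor, had log2 levels of -0.74 and -0.06 in high-difference grafts, against -3.85 and -3.59 in low-difference grafts. Lamb3, the beta chain of laminin-332 on which epithelial cells migrate, had log2 levels of 3.44 and 3.95 in high-difference grafts, against 0.59 and 1.63 in low-difference grafts, with a difference of 2.58 ± 1.21 (adjusted p = 0.363). Abcc2, an export pump for conjugated drugs, stood at 4.33 and 4.97 in high-difference grafts, against 1.95 and 2.35 in low-difference grafts. These 3 genes were likewise clear of the low-difference arrays on both high-difference arrays. Other leading genes on the high side were Chac1, Trib3 and Nqo1, described with their programmes below, and Cadps, Steap1, Cda, B4galnt4, Wnt2 and Ddit4l, with log2 differences of 2.30 to 2.52.

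Genes dim on both low-difference arrays have only a lower bound for their fold, which holds for the scanner's own background subtraction. With normexp background correction, which adds an offset of 50 to the signal, the fold of every gene given here by a bound was below it. Krt20, a keratin of urothelium and gut that injured tubule expresses, had log2 levels of -0.13 and -0.76 in high-difference grafts, against -5.68 and -6.31 in low-difference grafts, and was at least 43.8-fold higher in high-difference grafts, and 9.40-fold with normexp. The neuropeptide gene Trh was at least 7.15-fold higher in high-difference grafts, and the gene of the matrix-degrading protease Mmp3 at least 5.39-fold, where normexp gave 3.05-fold and 2.35-fold. Nptx2, S100a7a and Guca1a followed, at least 4.85-fold, 4.59-fold and 3.38-fold higher, and with normexp 2.23-fold, 2.02-fold and 1.77-fold. For Nptx2 the log2 difference was 3.25 without high-difference array 2 and 1.36 without array 1.

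**Figure D1:**
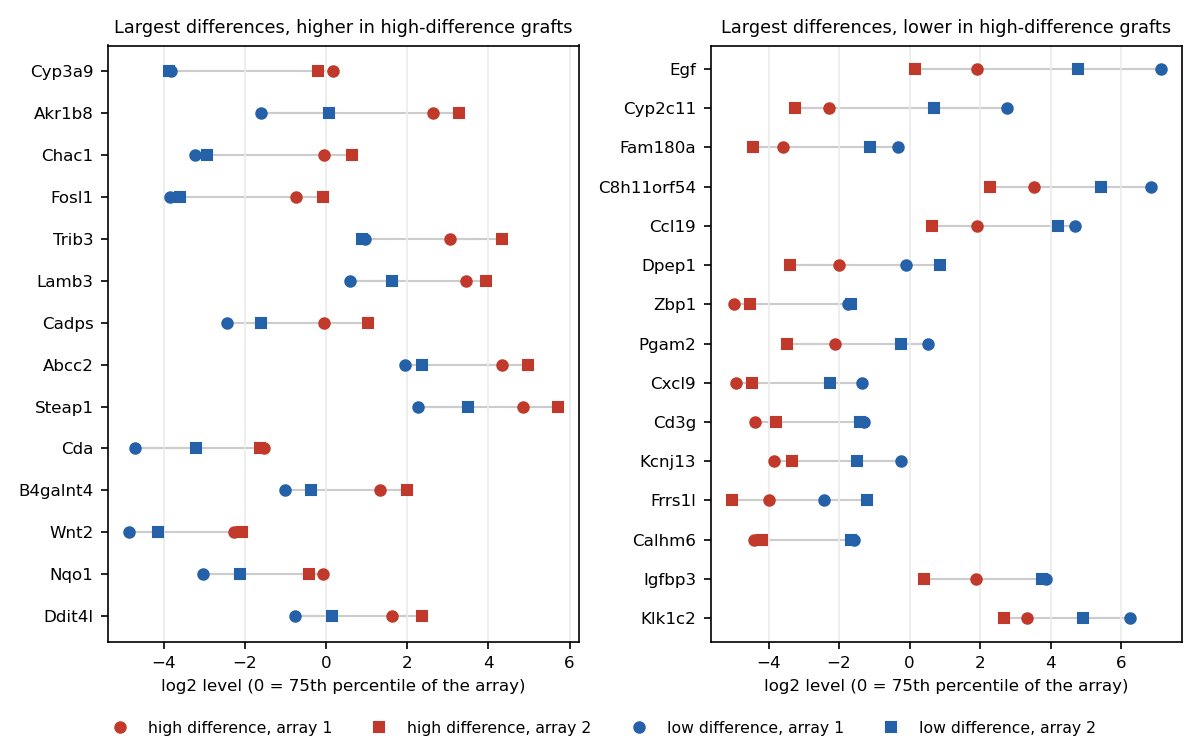
Log2 levels (0 is the 75th percentile of the array) of 14 of the 15 genes farthest higher and of the 15 farthest lower in high-difference grafts, 1 point per array, red for the 2 high-difference and blue for the 2 low-difference arrays, circles for array 1 and squares for array 2 of each group. In every row the 2 groups are apart, with the largest mean difference for Egf at -4.90 on the log2 scale.

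On the low side the leading genes were of the tubule, of steroid metabolism and of immune cells. Egf, the epidermal growth factor made by the thick ascending limb and distal tubule, had log2 levels of 1.93 and 0.15 in high-difference grafts, against 7.12 and 4.77 in low-difference grafts. Its difference was -4.90 ± 1.68 (adjusted p = 0.316). Both groups spread widely and did not overlap. Cyp2c11, a male-specific steroid hydroxylase in rat, had log2 levels of -2.30 and -3.26 in high-difference grafts, against 2.77 and 0.71 in low-difference grafts. Dpep1, a dipeptidase of the proximal brush border, had log2 levels of -1.99 and -3.40 in high-difference grafts, against -0.10 and 0.87 in low-difference grafts. Igfbp3, the main carrier of insulin-like growth factors, stood at 1.89 and 0.40 in high-difference grafts, against 3.88 and 3.75 in low-difference grafts (difference -2.67 ± 0.60). In all 3 genes high-difference array 2 was the lowest of the 4 arrays. The remaining leading genes were Ccl19, Zbp1, Cxcl9, Cd3g and Calhm6, described with the immune genes below, and Fam180a, C8h11orf54, Pgam2, Kcnj13, Frrs1l and Klk1c2, with log2 differences between -3.29 and -2.57. Among genes dim on both high-difference arrays, Lrrc66 was at least 5.91-fold lower in high-difference grafts, and 2.27-fold with normexp. Itgal, an integrin of leukocytes, was at least 4.95-fold and Abca8a, a transporter gene, at least 4.02-fold lower, and with normexp 1.72-fold and 1.71-fold. Or5al7 and C7, a complement component, were at least 4.00-fold and 3.50-fold lower, and 1.97-fold and 1.60-fold with normexp. The spot of Iqch, which the same rule names, lay in the dark patch, and its bound is not given.

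Genes of the integrated stress response, through which ATF4 raises amino acid synthesis, uptake and tRNA charging, lay mostly higher in high-difference grafts. Of 33 members with a usable probe, 30 were tested and 0 passed. Of those tested, 26 lay above 0, and 4 were higher with a clear gap against 0 lower. Among all genes with a symbol, 0.551% had a clear gap higher and 2.11% lower, and 53.9% of those tested lay above 0. The median log2 difference was 0.75 over the tested members, against 0.05 over all tested genes with a symbol. Chac1, a glutathione-degrading enzyme and ATF4 target, had log2 levels of -0.04 and 0.64 in high-difference grafts, against -3.24 and -2.94 in low-difference grafts (difference 3.39 ± 0.42, adjusted p = 0.209). Trib3, a pseudokinase that feeds back on ATF4, had log2 levels of 3.06 and 4.33 in high-difference grafts, against 0.97 and 0.90 in low-difference grafts (difference 2.76 ± 0.47). Asns, asparagine synthetase, stood at 3.03 and 4.01 in high-difference grafts, against 1.46 and 1.85 in low-difference grafts. All 3 genes were highest on high-difference array 2, as 24 of the 30 tested members were higher there than on high-difference array 1. Atf4 itself had log2 levels of 5.19 and 5.72 in high-difference grafts, against 4.43 and 4.30 in low-difference grafts. Atf3, a factor of the same family, had log2 levels of 3.08 and 4.62 in high-difference grafts, against 1.92 and 2.18 in low-difference grafts. Neither overlapped between the groups. Ddit3, the death-linked factor CHOP, overlapped, with log2 levels of 0.89 and 0.28 in high-difference grafts, against 0.53 and 0.60 in low-difference grafts. Herpud1, a gene of endoplasmic reticulum (ER) associated degradation, was lower, at 3.83 and 4.20 in high-difference grafts, against 5.40 and 4.82 in low-difference grafts.

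The aminoacyl-tRNA synthetases, which charge tRNAs with amino acids and of which many are ATF4 targets, all lay on the same side. All 17 members with a usable probe had a log2 difference above 0, between 0.05 and 1.03, while 0 had a clear gap and 0 passed. Nars1, for asparagine, had log2 levels of 2.12 and 2.37 in high-difference grafts, against 1.22 and 1.44 in low-difference grafts. Gars1, for glycine, had log2 levels of 0.05 and 0.49 in high-difference grafts, against -0.66 and -0.54 in low-difference grafts. Aars1, for alanine, had log2 levels of 3.66 and 3.53 in high-difference grafts, against 2.87 and 2.89 in low-difference grafts. In these 3 genes the gap between the groups was larger than the range within either group. Without high-difference array 2 the median of the synthetases was 0.30, against 0.61 with all arrays. ER chaperones of the unfolded protein response, 1 arm of which runs through ATF4, did not lie on a common side, with a median log2 difference of 0.10 over 23 tested members and 0 clear gaps. Hspa5, the chaperone BiP, had log2 levels of 5.10 and 6.94 in high-difference grafts, against 6.91 and 6.89 in low-difference grafts. High-difference array 1 alone was low for this gene. Heat shock genes were also near 0, with a median of 0.03 over 20 tested members.

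The promoters of 3 of these genes are shown because they hold the letters TGATGNAA, which ATF4 and C/EBP factors bind together, on either strand. They are the 250 bases before the RefSeq start site in assembly GRCr8, 5′ to 3′ on the gene's strand, with the match in capitals. Chac1 lies on chr3:126795881-126796130 (+), Trib3 on chr3:161275534-161275783 (-) and Aars1 on chr19:55908232-55908481 (+).
Chac1: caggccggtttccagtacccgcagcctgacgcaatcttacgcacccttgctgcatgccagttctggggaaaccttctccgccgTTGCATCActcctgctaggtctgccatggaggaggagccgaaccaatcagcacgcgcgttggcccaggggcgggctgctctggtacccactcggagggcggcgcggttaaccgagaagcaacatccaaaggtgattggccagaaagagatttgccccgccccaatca
Trib3: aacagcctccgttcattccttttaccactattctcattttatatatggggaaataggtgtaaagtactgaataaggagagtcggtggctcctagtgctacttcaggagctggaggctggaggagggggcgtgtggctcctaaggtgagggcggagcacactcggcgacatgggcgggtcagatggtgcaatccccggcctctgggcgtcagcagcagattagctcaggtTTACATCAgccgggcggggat
Aars1: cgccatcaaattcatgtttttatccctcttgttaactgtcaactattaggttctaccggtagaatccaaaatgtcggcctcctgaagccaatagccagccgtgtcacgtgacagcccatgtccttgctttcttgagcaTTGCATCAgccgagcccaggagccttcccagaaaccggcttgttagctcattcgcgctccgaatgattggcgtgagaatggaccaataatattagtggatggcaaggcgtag
The letters stood in 7 of 31 promoters of the ATF4 list and 4 of 15 of the synthetases, against 3.40% of 33469 promoters in the table. They also stood in 4 of 22 promoters of the cell death list and in 0 of 28 of the NRF2 list. Of those in the cell death list, several belong to different start sites of the same gene, Bcl2l1. Among the 7 of the ATF4 list was also Herpud1, which lay on the low side with a log2 difference of -1.10. A match describes the letters and is not a shown binding site.

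Targets of NRF2, the factor that answers oxidants and electrophiles, lay higher for enzymes of quinones and thiol repair and lower for several others. Of 30 tested members, 24 lay above 0, with a median log2 difference of 0.39 and 0 passing. By the clear gap, 5 were higher and 1 was lower, against 0.551% and 2.11% of all genes with a symbol. Nqo1, a quinone reductase, had log2 levels of -0.08 and -0.42 in high-difference grafts, against -3.03 and -2.11 in low-difference grafts (difference 2.32 ± 0.36, adjusted p = 0.233). Srxn1, which repairs peroxiredoxins, stood at -2.05 and -1.67 in high-difference grafts, against -4.05 and -3.44 in low-difference grafts. Txnrd1, thioredoxin reductase, stood at 3.86 and 4.08 in high-difference grafts, against 2.81 and 2.83 in low-difference grafts. For these 3 genes the 2 high-difference arrays differed from each other by less than from either low-difference array. Hmox1, heme oxygenase, stood at 1.23 and 2.39 in high-difference grafts, against -0.83 and 0.39 in low-difference grafts. The glutathione transferase gene Gstp1 stood at 8.44 and 8.5 in high-difference grafts, against 7.13 and 7.73 in low-difference grafts. Neither overlapped between the groups. Gclm, a subunit of the enzyme that limits glutathione synthesis, overlapped, with log2 levels of 2.79 and 3.01 in high-difference grafts, against 3.18 and 2.38 in low-difference grafts. Gclc, its catalytic subunit, was lower on both arrays, at 5.01 and 4.85 in high-difference grafts, against 6.03 and 5.03 in low-difference grafts. The glutathione transferase genes Gsta2 and Gsta3 lay on the low side at differences of -1.01 ± 0.62 and -1.18 ± 0.64, and Aox1, aldehyde oxidase, at -1.31 ± 0.69.

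**Figure D2:**
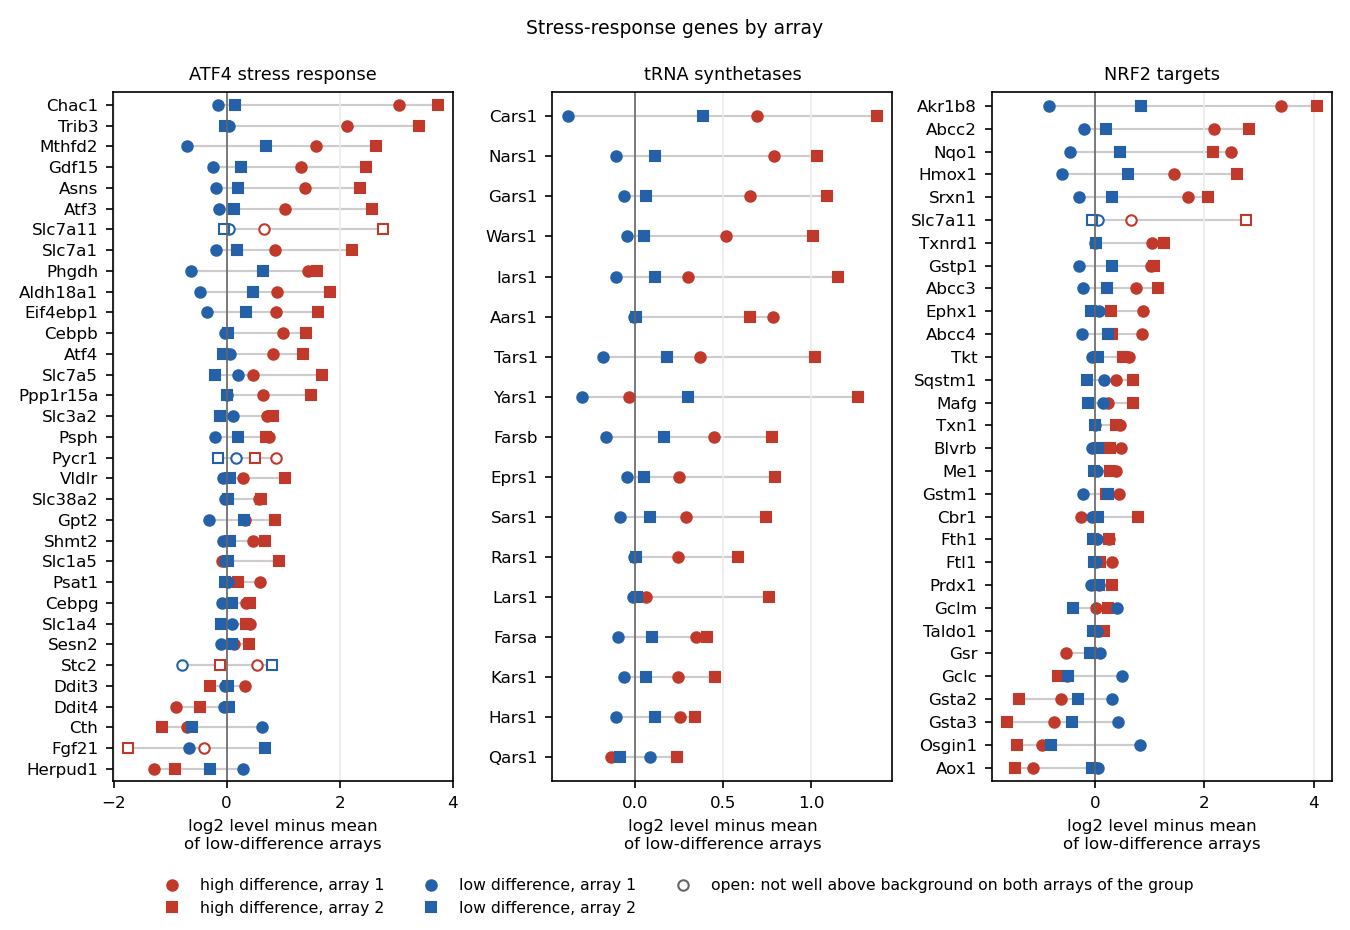
Log2 level minus the mean of the 2 low-difference arrays for members with a usable probe of the ATF4, tRNA synthetase and NRF2 lists, 1 point per array, red for high-difference and blue for low-difference arrays, circles for array 1 and squares for array 2, open where a group was not well above background on both of its arrays. All 17 synthetases have a mean difference above 0, and high-difference array 2 exceeds array 1 for 24 of the 30 tested ATF4 genes.

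The promoter of Txnrd1 is shown for the antioxidant letters TGACNNNGC, searched on both strands and present in 7 of 28 promoters of the list, against 10.1% of all promoters in the table. The letters were no less frequent in 2 other lists, with 8 of 31 promoters of the ATF4 list and 6 of 18 of sterol synthesis. The Txnrd1 promoter is that of the second of 2 start sites listed for the gene, at chr7:22755905-22756154 (-) in GRCr8, with the match in capitals. The first start site, and the promoters of Nqo1, Srxn1 and Akr1b8, do not hold these letters in their 250 bases.
Txnrd1: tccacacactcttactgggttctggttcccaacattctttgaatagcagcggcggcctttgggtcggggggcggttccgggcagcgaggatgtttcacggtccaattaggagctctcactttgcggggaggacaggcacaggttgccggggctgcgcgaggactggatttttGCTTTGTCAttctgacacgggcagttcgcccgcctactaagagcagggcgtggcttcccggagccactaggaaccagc

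Keratins and other genes of injured, dedifferentiated epithelium lay mostly higher. Of this list, 24 of 27 tested members lay above 0 and 0 passed. With a clear gap 4 were higher, against 0.551% of all genes with a symbol. The median log2 difference was 0.81, but 0.29 without high-difference array 2. Akap12, a scaffold of protein kinase A, had log2 levels of 0.90 and 2.56 in high-difference grafts, against -1.65 and -0.73 in low-difference grafts. S100a10, a partner of annexin A2, had log2 levels of 7.33 and 7.54 in high-difference grafts, against 5.83 and 6.29 in low-difference grafts. Pax8, a factor of the nephron lineage, had log2 levels of 1.22 and 1.86 in high-difference grafts, against 0.49 and 0.43 in low-difference grafts. None of the 3 overlapped between the groups. Krt8, a keratin of simple epithelium, overlapped, with 3.86 and 5.16 in high-difference grafts, against 3.25 and 3.97 in low-difference grafts. Its partner Krt18 overlapped too, with 6.87 and 8.42 in high-difference grafts, against 6.47 and 7.17 in low-difference grafts. Vim, the intermediate filament of mesenchymal and regenerating cells, lay against the list on average, at 3.36 and 2.87 in high-difference grafts, against 3.23 and 3.75 in low-difference grafts. Havcr1, the gene of the tubule injury molecule KIM-1, had an outlier flag on at least 1 array of the series and was not tested. With flagged spots kept, its log2 levels were 7.41 and 7.71 in high-difference grafts, against 3.79 and 5.23 in low-difference grafts.

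Genes of growth arrest and of the immediate early response were divided. Cdkn1a, the cell cycle inhibitor p21 and a p53 target, had log2 levels of 1.22 and 1.43 in high-difference grafts, against -0.48 and 0.33 in low-difference grafts. Tp53inp1, another p53 target, had log2 levels of -1.0 and -0.29 in high-difference grafts, against -2.0 and -1.69 in low-difference grafts. Both were higher without overlap, while Mdm2, which degrades p53, overlapped at 1.07 and 1.69 in high-difference grafts, against 1.17 and 1.19 in low-difference grafts. The median of the p53 list, 0.43 over 19 tested members, was -0.01 without high-difference array 2. Myc, a driver of cell growth, stood at 2.64 and 4.11 in high-difference grafts, against 1.04 and 1.43 in low-difference grafts. Fos, a partner in AP-1, overlapped at -0.97 and 0.66 in high-difference grafts, against 1.21 and 0.64 in low-difference grafts. Jun, the other partner, overlapped at 4.95 and 5.30 in high-difference grafts, against 4.97 and 4.74 in low-difference grafts. Of the 3 factors only Myc was thus clear of the low-difference arrays. Klf2, a factor of endothelial flow sensing, was lower, at -2.02 and -1.97 in high-difference grafts, against -1.19 and -1.19 in low-difference grafts.

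Ligands and receptors of the EGF family were divided. Of 12 tested members 8 lay above 0 and 4 below, Egf among them, with a median log2 difference of 0.29, which was 0.06 without high-difference array 2. Nrg1, a ligand of the ERBB receptors, had log2 levels of 2.14 and 2.26 in high-difference grafts, against 0.79 and 0.95 in low-difference grafts (difference 1.33 ± 0.22, adjusted p = 0.259). Tgfa, transforming growth factor alpha, had log2 levels of 1.54 and 1.63 in high-difference grafts, against 0.46 and 0.87 in low-difference grafts. Areg, amphiregulin, stood at 0.14 and 0.81 in high-difference grafts, against -0.18 and -1.26 in low-difference grafts. All 3 were higher on both high-difference arrays than on either low-difference array. Hbegf, which is shed from injured epithelium, stood at 0.56 and 2.03 in high-difference grafts, against 0.46 and 0.06 in low-difference grafts, with its 2 nearest arrays almost touching. Of the matricellular genes, Gdf15, a stress cytokine also on the ATF4 list, had log2 levels of 2.65 and 3.80 in high-difference grafts, against 1.09 and 1.58 in low-difference grafts. Fst, which binds activins, had log2 levels of 1.78 and 1.82 in high-difference grafts, against 0.95 and 0.72 in low-difference grafts. Both genes were higher without overlap, although their list as a whole lay at 0.13. Id3, a target of bone morphogenetic proteins, was lower by -0.90 ± 0.28 on the log2 scale, taken as high minus low. Bmp6, one of those proteins, was well above background on 1 high-difference array only, with log2 levels of -5.0 and -5.68 in high-difference grafts, against -4.04 and -3.15 in low-difference grafts.

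The machinery that makes and removes proteins showed small and even differences. Of 36 ribosomal protein genes, all lay above 0 and 34 did not overlap, at log2 differences of 0.17 to 0.80 and a median of 0.53. All 29 proteasome genes lay above 0 and 26 did not overlap, with a median of 0.38. All 27 genes of ribosome biogenesis lay above 0 and 26 did not overlap, with a median of 0.71. Over all tested genes with a symbol, 32.3% were without overlap on this side. Rpl13, of the large ribosomal subunit, had log2 levels of 7.87 and 7.98 in high-difference grafts, against 7.12 and 7.48 in low-difference grafts. Psmc4, a proteasome ATPase, had log2 levels of 3.48 and 3.48 in high-difference grafts, against 2.74 and 2.82 in low-difference grafts. Dkc1, which modifies ribosomal RNA, had log2 levels of 4.40 and 4.61 in high-difference grafts, against 3.67 and 3.84 in low-difference grafts. With quantile normalization, which forces the same signal distribution on each array, the medians were 0.36 for ribosomal proteins, 0.28 for the proteasome and 0.63 for ribosome biogenesis. For comparison, the median SD of a tested gene with a symbol was 0.20 within the high-difference and 0.17 within the low-difference group, and 0 members passed.

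Metabolic genes of the proximal tubule were mostly lower in high-difference grafts, and most of all on high-difference array 2. Of 32 tested genes of gluconeogenesis and amino acid breakdown, 27 lay below 0 and 0 passed. Only 1 had a clear gap lower, against 2.11% of all genes with a symbol. The median log2 difference of the 32 genes was -0.94, which was -0.61 without high-difference array 2. High-difference array 2 was the lowest of the 4 arrays for 26 of them. G6pc1, the glucose-releasing phosphatase, had log2 levels of 4.22 and 1.29 in high-difference grafts, against 5.36 and 4.91 in low-difference grafts. Fbp1, fructose bisphosphatase, had log2 levels of 7.49 and 5.74 in high-difference grafts, against 8.51 and 7.72 in low-difference grafts. Miox, the inositol oxygenase of renal tubule, stood at 3.18 and 0.82 in high-difference grafts, against 5.15 and 4.06 in low-difference grafts. In all 3 genes high-difference array 1 lay between array 2 and the low-difference arrays. Khk, which starts fructose breakdown, stood at 3.94 and 2.90 in high-difference grafts, against 6.27 and 5.27 in low-difference grafts. The order of the arrays was the same for this gene. Pck1, the rate-setting enzyme of gluconeogenesis, had log2 levels of 4.02 and 2.54 in high-difference grafts, against 5.92 and 4.13 in low-difference grafts (difference -1.75 ± 1.21, adjusted p = 0.484).

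Detoxifying, fat-burning and respiratory genes were lower by less. Cytochrome P450 and conjugation genes had a median log2 difference of -0.70, with 23 of 30 tested members below 0, and a median of -0.45 without high-difference array 2. Cyp2e1, which oxidises small solvents, had log2 levels of 2.06 and -1.0 in high-difference grafts, against 3.69 and 2.83 in low-difference grafts. Glyat, which conjugates acids to glycine, had log2 levels of 5.77 and 4.70 in high-difference grafts, against 6.93 and 6.29 in low-difference grafts. The enzymes of vitamin D lay the other way, each with a clear gap. Cyp27b1, which makes calcitriol, had log2 levels of -1.68 and -1.26 in high-difference grafts, against -3.45 and -2.98 in low-difference grafts. Cyp24a1, which degrades it, had log2 levels of 1.78 and 1.86 in high-difference grafts, against -0.25 and 0.07 in low-difference grafts. Fatty acid oxidation and peroxisome genes had a median of -0.44, and 31 of 39 members lay below 0. That median was -0.18 without high-difference array 2, -0.17 without low-difference array 1 and -0.69 without low-difference array 2. Cpt2, of mitochondrial fatty acid import, lay the other way at 1.71 and 1.56 in high-difference grafts, against 1.39 and 1.08 in low-difference grafts.

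Subunits of oxidative phosphorylation were lower by little and evenly. Of 46 tested members, 43 lay below 0 and 33 did not overlap, with a median of -0.29, where 25.4% of all tested genes with a symbol were without overlap on this side. Ndufv2, of complex I, had log2 levels of 6.46 and 6.82 in high-difference grafts, against 7.49 and 7.28 in low-difference grafts. Sdha, of complex II, overlapped at 7.34 and 6.79 in high-difference grafts, against 7.79 and 7.26 in low-difference grafts. Citrate cycle genes and glycolysis genes lay at medians of -0.19 and 0.18, which were -0.07 and 0.10 without high-difference array 2. Without low-difference array 1 the citrate cycle median was -0.05, and without low-difference array 2 it was -0.41. Ldha, lactate dehydrogenase A, was higher, at 4.67 and 4.96 in high-difference grafts, against 3.66 and 4.26 in low-difference grafts. Slc16a3, a lactate exporter, was higher, at 1.46 and 2.20 in high-difference grafts, against 0.35 and 0.79 in low-difference grafts.

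Solute carriers of the proximal tubule did not lie on a common side. Of 35 tested members, 21 lay below 0, with a median log2 difference of -0.22, which was 0.02 without high-difference array 2. Slc34a1, the sodium-phosphate cotransporter, had log2 levels of 2.90 and 0.41 in high-difference grafts, against 4.94 and 3.83 in low-difference grafts. Slc22a6, the organic anion transporter OAT1, had log2 levels of 1.82 and -0.56 in high-difference grafts, against 2.83 and 2.62 in low-difference grafts. Both were lower, and lowest on high-difference array 2. Slc17a3, an organic anion carrier, was higher, at 5.70 and 5.52 in high-difference grafts, against 4.12 and 4.57 in low-difference grafts. Slc17a1, a related phosphate and urate carrier, was higher, at 3.40 and 3.30 in high-difference grafts, against 2.47 and 2.80 in low-difference grafts. Slc2a2, the glucose exit carrier GLUT2, was higher with a clear gap, at 3.57 and 3.65 in high-difference grafts, against 2.12 and 2.54 in low-difference grafts. These 3 differed little between the 2 high-difference arrays. Slc5a2, the glucose cotransporter SGLT2, overlapped at 5.89 and 5.03 in high-difference grafts, against 4.48 and 5.70 in low-difference grafts. Cubn, the endocytic receptor cubilin, overlapped at 5.54 and 5.26 in high-difference grafts, against 5.52 and 5.17 in low-difference grafts. Anpep, a brush border peptidase, was lower at 4.19 and 3.11 in high-difference grafts, against 6.28 and 5.02 in low-difference grafts.

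**Figure D3:**
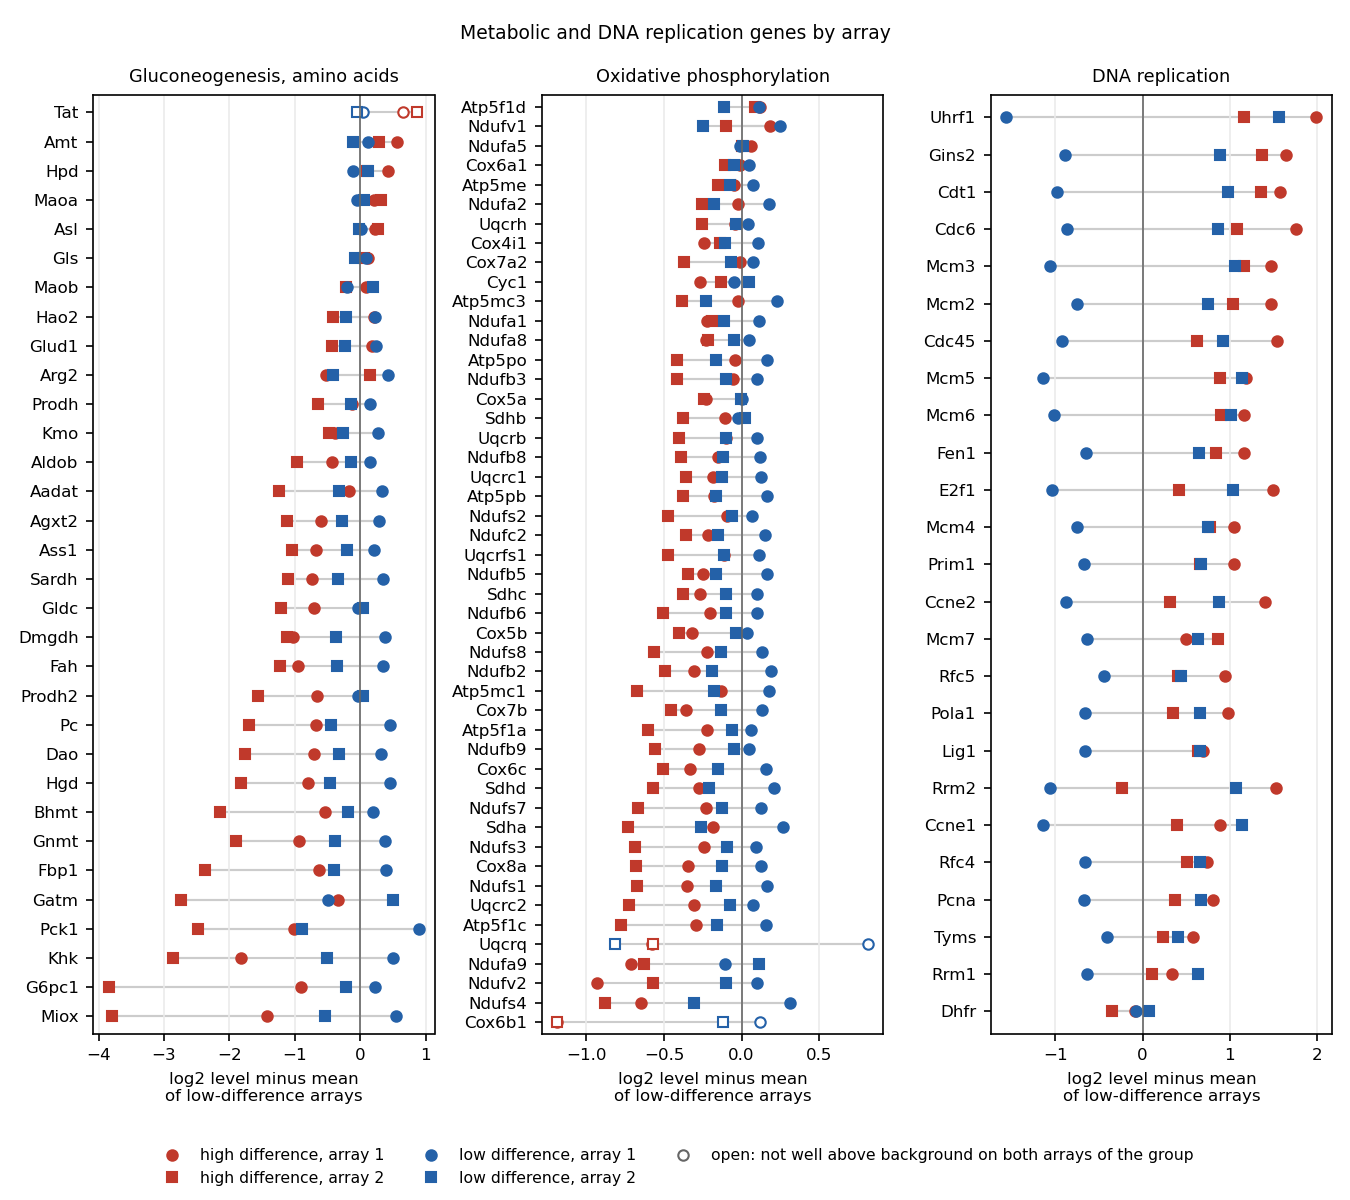
Log2 level minus the mean of the 2 low-difference arrays for members with a usable probe of the gluconeogenesis and amino acid, oxidative phosphorylation and DNA replication lists, 1 point per array, red for high-difference and blue for low-difference arrays, circles for array 1 and squares for array 2, open where a group was not well above background on both of its arrays. High-difference array 2 is lowest for 26 of 32 tested genes of the first list, and low-difference array 1 for 24 of 25 in the last, while the respiratory genes lie at a median of -0.29.

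Beyond the proximal tubule, genes of salt, water and acid transport were mostly lower. Of 12 genes of the thick ascending limb, 10 lay below 0 with a median log2 difference of -1.01, and 0 passed. With a clear gap 3 were lower, against 2.11% of all genes with a symbol. Slc12a1, the furosemide-sensitive cotransporter NKCC2, had log2 levels of 4.91 and 4.46 in high-difference grafts, against 6.95 and 5.73 in low-difference grafts. Casr, the calcium-sensing receptor, had log2 levels of -0.09 and -1.53 in high-difference grafts, against 2.62 and 1.01 in low-difference grafts. Bsnd, the chloride channel subunit barttin, had log2 levels of 0.07 and -0.30 in high-difference grafts, against 1.63 and 1.09 in low-difference grafts. None of the 3 overlapped. Umod, uromodulin, was nearer at 8.26 and 7.74 in high-difference grafts, against 9.13 and 8.69 in low-difference grafts. Cldn19, a claudin of this segment, lay the other way at 1.94 and 3.02 in high-difference grafts, against 1.17 and 1.87 in low-difference grafts. Slc12a3, the thiazide-sensitive cotransporter of the distal convoluted tubule, stood at -0.22 and -0.84 in high-difference grafts, against 1.73 and 0.69 in low-difference grafts. In each of these but Cldn19, low-difference array 1 was the highest of the 4 arrays.

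Collecting duct genes had a median of -0.70 over 20 tested members, which was -0.39 without high-difference array 2 and -0.38 without low-difference array 1. Aqp2, the vasopressin-regulated water channel, had log2 levels of 2.60 and 0.56 in high-difference grafts, against 4.54 and 3.68 in low-difference grafts. Avpr2, the vasopressin receptor, had log2 levels of 0.02 and -0.49 in high-difference grafts, against 1.37 and 0.91 in low-difference grafts. Intercalated cell genes, of the cells that secrete acid or base, lay below 0 for 17 of 18 tested members. Their median was -1.11, and -0.56 with normexp background correction. Atp6v1b1, a subunit of the proton pump, had log2 levels of -2.43 and -2.71 in high-difference grafts, against -0.70 and -1.32 in low-difference grafts. Slc26a7, an anion exchanger dim on both high-difference arrays, was at least 2.31-fold lower in high-difference grafts. Slc26a4, the anion exchanger pendrin, overlapped at 6.40 and 7.30 in high-difference grafts, against 7.52 and 6.83 in low-difference grafts. Low-difference array 1 was the highest of the 4 arrays for 10 of 12 thick limb, 13 of 18 distal convoluted, 15 of 20 collecting duct and 15 of 18 intercalated genes.

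Cell cycle genes separated single arrays and not the groups. DNA replication genes had a median log2 difference of 0.86, with 24 of 25 above 0 and 7 without overlap, where 32.3% of all tested genes with a symbol were without overlap on this side. Without low-difference array 1 the median was 0.01, and without low-difference array 2 it was 1.71. Mcm3, a subunit of the replicative helicase, had log2 levels of 3.74 and 3.44 in high-difference grafts, against 1.20 and 3.33 in low-difference grafts. Cdc6, which loads that helicase, had log2 levels of 0.01 and -0.67 in high-difference grafts, against -2.62 and -0.88 in low-difference grafts. Low-difference array 1 was low for both genes and the other 3 arrays lay nearer together. Mitotic genes were high on high-difference array 1 and low-difference array 2, and low on the remaining 2 arrays. Their median deviations from the mean of each gene were 0.80 and -0.56 in high-difference grafts, against -1.09 and 0.87 in low-difference grafts. Mki67, a proliferation marker, stood at 0.03 and -1.89 in high-difference grafts, against -2.11 and -0.05 in low-difference grafts. Cdk1, the mitotic kinase, stood at 4.71 and 3.26 in high-difference grafts, against 2.57 and 4.71 in low-difference grafts, again with 1 high and 1 low array in each group.

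**Figure D4:**
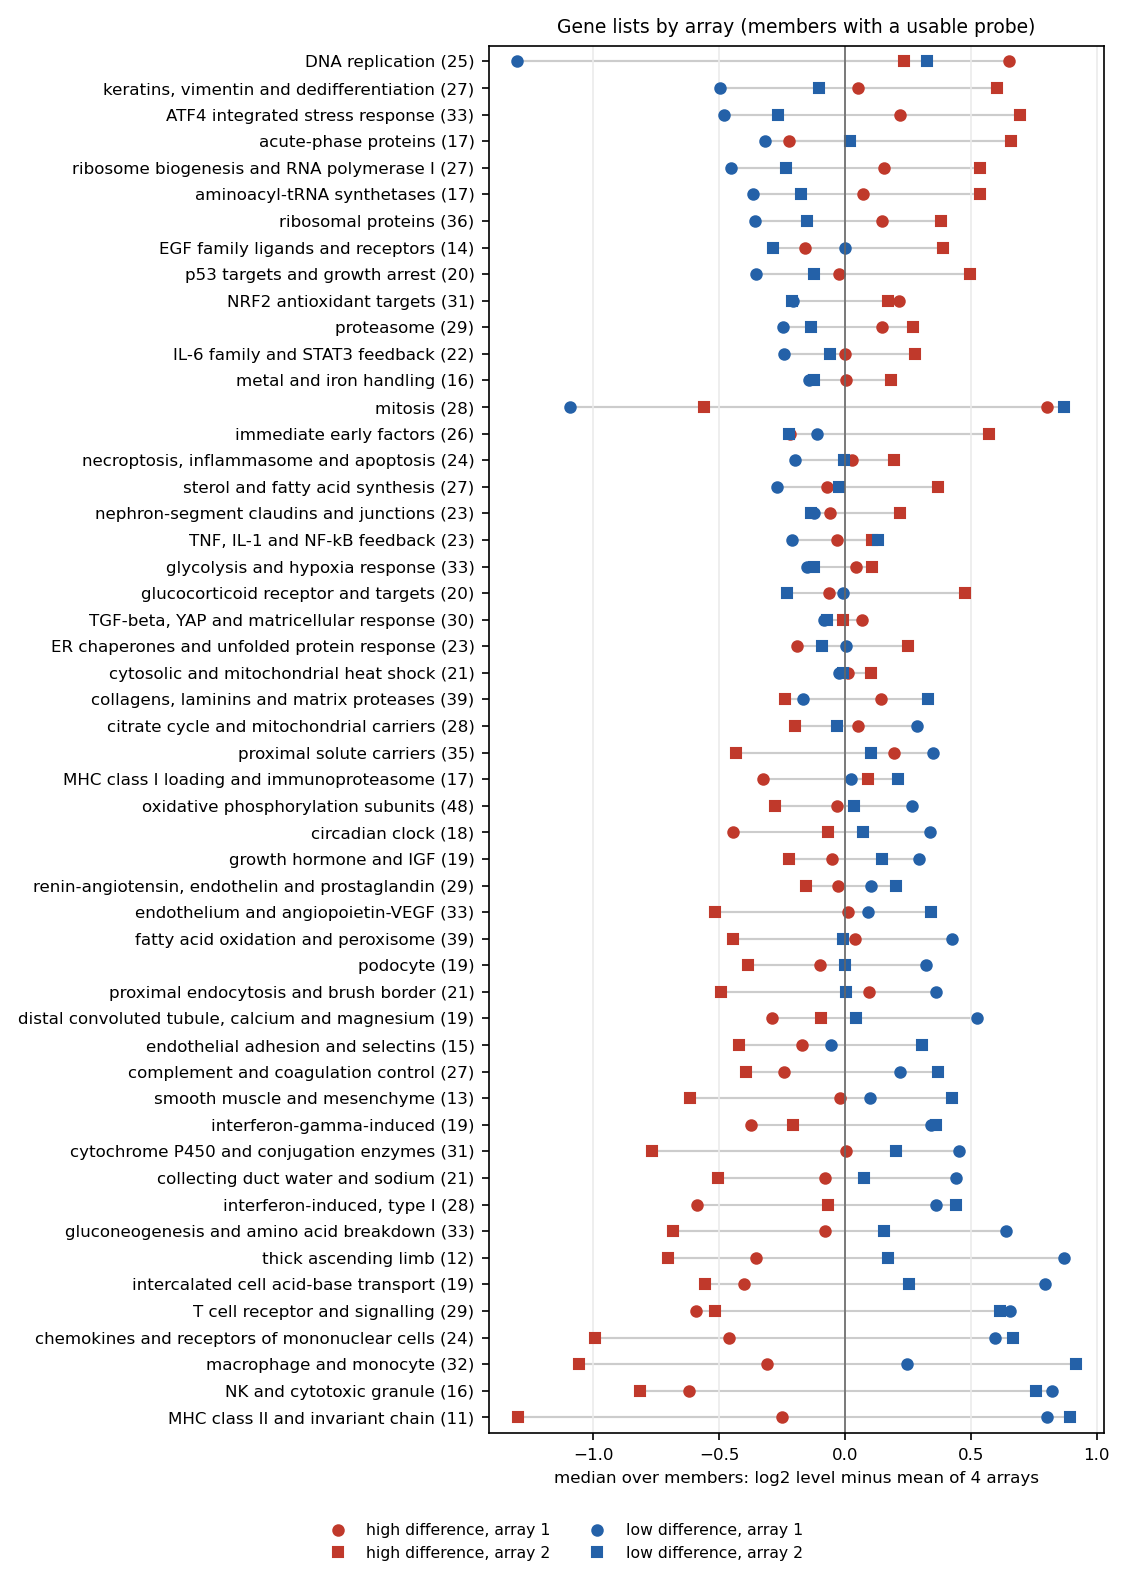
Median over the members of each gene list drawn of the log2 level minus the gene's mean over the 4 arrays, 1 point per array, red for high-difference and blue for low-difference arrays, circles for array 1 and squares for array 2, with the number of members with a usable probe in brackets. The kidney identity, B and plasma cell, dendritic cell and neutrophil lists and the list of other tissues are not drawn. Many lists keep the colours apart, among them ATF4, ribosomal protein, intercalated cell and MHC class II. The T cell and NK lists do so too, with many members dim in high-difference grafts. The mitosis list mixes the colours at 0.80 and -0.56 for the high-difference arrays, against -1.09 and 0.87 for the low-difference arrays.

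Vascular, glomerular and stromal genes were lower to a smaller degree. Of 32 tested endothelial genes 25 lay below 0 and 0 passed. By the clear gap 2 were lower and 1 was higher, against 2.11% and 0.551% of all genes with a symbol. The median log2 difference of the tested endothelial genes was -0.43. That median was -0.20 without high-difference array 2 and -0.73 without array 1. Thbd, the anticoagulant receptor thrombomodulin, had log2 levels of 1.22 and 1.0 in high-difference grafts, against 2.39 and 2.40 in low-difference grafts (difference -1.28 ± 0.25, adjusted p = 0.284). Vwf, von Willebrand factor, had log2 levels of 0.63 and -0.86 in high-difference grafts, against 1.61 and 1.40 in low-difference grafts. Tie1, an endothelial receptor kinase, had log2 levels of -3.23 and -3.62 in high-difference grafts, against -2.40 and -2.32 in low-difference grafts. These 3 genes were lower without overlap. Apln, a peptide of sprouting endothelium, lay the other way with a clear gap, at 4.28 and 4.06 in high-difference grafts, against 1.26 and 2.78 in low-difference grafts. Nphs1, for nephrin of the podocyte filtration slit, overlapped at 0.33 and 0.08 in high-difference grafts, against 0.53 and 0.09 in low-difference grafts. Of stromal genes, Pdgfrb, a receptor of pericytes, stood at 2.32 and 1.86 in high-difference grafts, against 2.93 and 3.31 in low-difference grafts. Myl9, a myosin light chain of contractile cells, stood at 4.31 and 2.97 in high-difference grafts, against 4.62 and 5.38 in low-difference grafts. Dcn, of fibroblast matrix, had log2 levels of 0.85 and -0.63 in high-difference grafts, against 1.07 and 2.06 in low-difference grafts. All 3 were lowest on high-difference array 2. The collagen, laminin and protease list of 39 genes lay at a median of -0.01. It had 3 clear gaps higher, Lamb3 and Mmp3 among them, and 0 lower, against 0.551% and 2.11% of all genes with a symbol.

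Components of the classical complement pathway were lower and fibrinogen was not. C1s, a protease of the first component, had log2 levels of 0.67 and -0.44 in high-difference grafts, against 2.26 and 3.05 in low-difference grafts (difference -2.54 ± 0.49, adjusted p = 0.281). C1r, its partner, had log2 levels of 0.05 and -0.71 in high-difference grafts, against 0.97 and 1.82 in low-difference grafts. C1qc, of the macrophage-made C1q, had log2 levels of -0.57 and -1.78 in high-difference grafts, against 0.31 and 1.21 in low-difference grafts. In all 3 genes high-difference array 2 was the lowest. C3, the central component, overlapped at 0.72 and 2.62 in high-difference grafts, against 0.74 and 0.72 in low-difference grafts, and there high-difference array 2 was the highest. Fga, a fibrinogen chain, stood at 5.66 and 8.21 in high-difference grafts, against 4.06 and 5.62 in low-difference grafts. Fgb, a second chain, stood at 5.73 and 8.30 in high-difference grafts, against 3.62 and 5.37 in low-difference grafts. Both chains were highest on high-difference array 2. Over 14 tested acute-phase genes the median log2 difference was 0.68, which was 0.07 without high-difference array 2. Cp, ceruloplasmin, lay against that list at -2.31 and -2.93 in high-difference grafts, against -1.94 and -1.17 in low-difference grafts.

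Genes of T cells and cytotoxic lymphocytes were lower in high-difference grafts, and many of them lay at the limit of detection there. Fewer cells of a type and less RNA per cell cannot be told apart in tissue RNA. Earlier results of these data already gave this direction, so the counts here are no independent evidence of it. Of 29 T cell genes, 17 were not well above background on at least 1 high-difference array, against 11 on at least 1 low-difference array. By the clear gap, 10 were lower and 0 higher, against 2.11% and 0.551% of all genes with a symbol. However, 5 members were dim on both high-difference arrays and on neither low-difference array. They passed the filter through the low-difference but not the high-difference group, which makes these counts no support for a difference. Cd3g, of the T cell receptor complex, had log2 levels of -4.39 and -3.77 in high-difference grafts, against -1.28 and -1.39 in low-difference grafts. Cd3d, of the same complex, had log2 levels of -2.01 and -1.99 in high-difference grafts, against -0.51 and -0.72 in low-difference grafts. Each of the 4 arrays had both well above background. The log2 difference of Cd3g was -1.62 with normexp, against -2.74 as processed here. Cd8a, the coreceptor of cytotoxic T cells, was dim on both high-difference arrays and at least 2.48-fold lower in high-difference grafts, while Cd4 was dim on all 4. Relative to the low-difference mean, the median of the list was -1.21 on high-difference array 1 and -0.97 on array 2 over members with a usable probe. With normexp background correction the median over tested members was -0.17, against -1.42 as processed here. The high-difference arrays had fewer spots well above background, and the part of this in the low values was not tested.

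Granule and receptor genes of NK cells were mostly dim in high-difference grafts. Of 16 members with a usable probe, 12 lay below 0, with a median log2 difference of -1.51. Only 5 were well above background on all 4 arrays, with a median of -1.49. Another 5 were dim on both high-difference arrays and on neither low-difference array. These passed the filter through the low-difference but not the high-difference group and had to differ. Over the 12 tested the median was -0.46 with normexp and -1.77 as processed here. Prf1, perforin, had log2 levels of -3.51 and -4.20 in high-difference grafts, against -2.49 and -2.23 in low-difference grafts. The receptor gene Klrd1 was at least 2.55-fold and the death ligand gene Faslg at least 2.43-fold lower in high-difference grafts. Nkg7, a granule membrane protein, was nearer at -2.37 and -2.83 in high-difference grafts, against -1.99 and -1.88 in low-difference grafts. Gzmb, granzyme B, was at least 2.55-fold lower by the probe used, and its second probe pointed the other way.

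**Figure D5:**
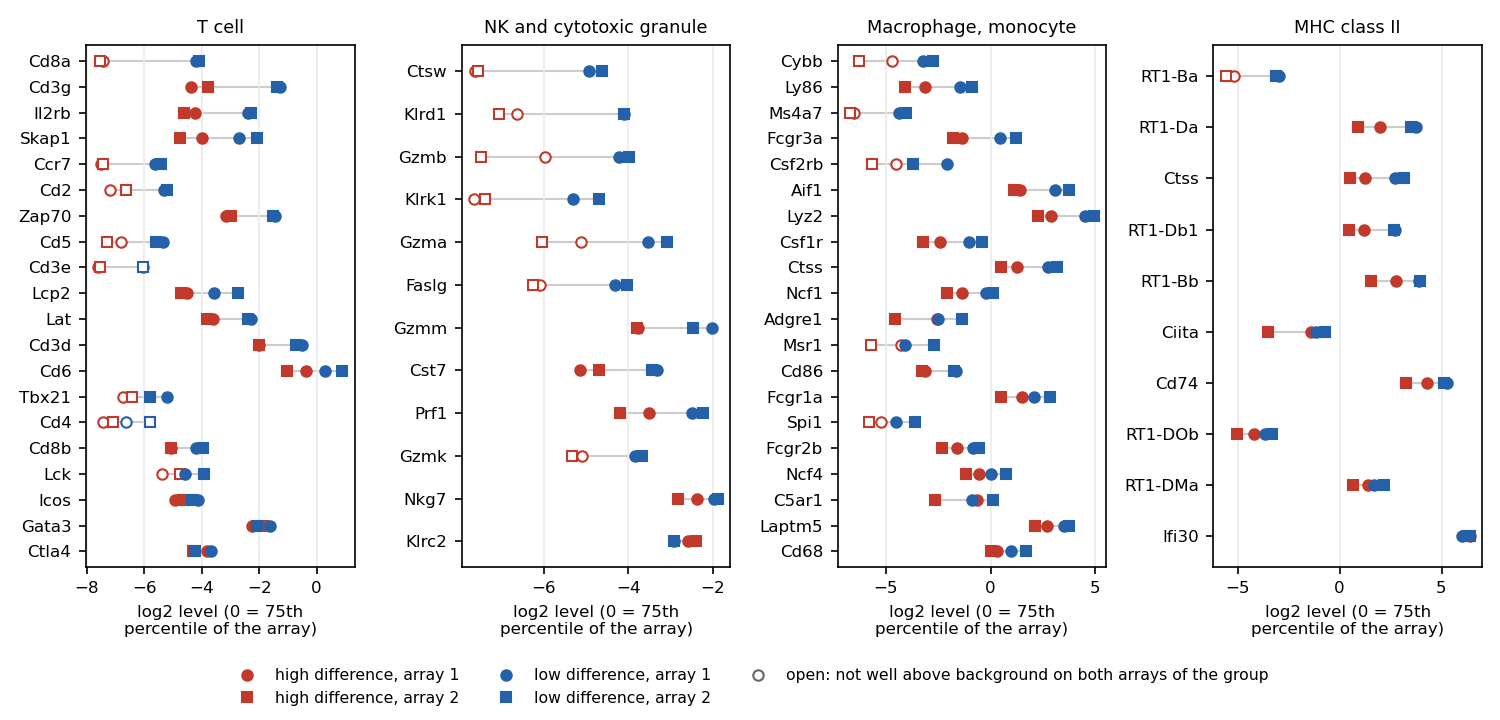
Log2 levels (0 is the 75th percentile of the array) of up to 20 tested members per immune list with the lowest differences, 1 point per array, red for high-difference and blue for low-difference arrays, circles for array 1 and squares for array 2, open where a group was not well above background on both of its arrays. Many of the red points of the T and NK panels are open, while most MHC class II genes are measured in both groups, RT1-Da at 2.0 and 0.91 in high-difference grafts and 3.73 and 3.51 in low-difference grafts.

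Macrophage and MHC class II genes were lower, and more so on high-difference array 2 than on array 1. Over 32 macrophage genes the median relative to the low-difference mean was -0.93 on high-difference array 1 and -1.68 on array 2. There were 10 clear gaps lower and 0 higher, against 2.11% of all genes with a symbol lower. Of the 32 genes, 12 were dim on at least 1 high-difference array, against 5 on at least 1 low-difference array. As 2 passed the filter through the low-difference but not the high-difference group, these counts are no support for a difference. The median over tested members was -1.04 with normexp, against -1.45 as processed here. Csf1r, the receptor macrophages need to survive, had log2 levels of -2.42 and -3.21 in high-difference grafts, against -1.03 and -0.43 in low-difference grafts. Ly86, a partner of toll-like receptors, had log2 levels of -3.12 and -4.11 in high-difference grafts, against -1.44 and -0.90 in low-difference grafts. Cd86, a costimulatory ligand, had log2 levels of -3.14 and -3.27 in high-difference grafts, against -1.63 and -1.76 in low-difference grafts. All 3 were lowest on high-difference array 2. Cd14, a receptor that tubules can also express, overlapped at 1.14 and 1.25 in high-difference grafts, against 0.46 and 1.16 in low-difference grafts. RT1-Da, a class II chain, had log2 levels of 2.0 and 0.91 in high-difference grafts, against 3.73 and 3.51 in low-difference grafts. Cd74, the invariant chain, had log2 levels of 4.28 and 3.24 in high-difference grafts, against 5.28 and 5.12 in low-difference grafts. Ciita, the switch of class II transcription, stood at -1.43 and -3.53 in high-difference grafts, against -1.15 and -0.72 in low-difference grafts. Here too high-difference array 2 was the lowest, and the class II median was -1.03 without array 2 and -2.30 without array 1. Class I and peptide loading genes were nearer, with a median of -0.29, which was -0.03 without high-difference array 1 and -0.55 without array 2. B2m, the light chain of class I, stood at 6.31 and 6.48 in high-difference grafts, against 7.02 and 6.88 in low-difference grafts. Tap2, of the peptide transporter, overlapped at 3.39 and 3.65 in high-difference grafts, against 3.57 and 3.58 in low-difference grafts.

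Interferon-induced genes were lower, and here the median on high-difference array 1 was the lower of its group. Over 28 genes induced by type I interferon it was -0.93 on high-difference array 1 and -0.53 on array 2, relative to the low-difference mean. Of these genes 25 lay below 0 and 0 passed, and 2 had a clear gap lower, against 2.11% of all genes with a symbol. Bst2, tetherin, had log2 levels of 2.07 and 1.90 in high-difference grafts, against 3.66 and 3.71 in low-difference grafts. Usp18, which dampens interferon signalling, had log2 levels of -3.45 and -2.38 in high-difference grafts, against -1.15 and -1.01 in low-difference grafts. Irf7, a master factor of the response, had log2 levels of 1.23 and 2.20 in high-difference grafts, against 2.82 and 2.95 in low-difference grafts. None of the 3 overlapped. Of the genes induced by interferon-gamma, Gbp2, a guanylate-binding protein, had log2 levels of 2.16 and 1.82 in high-difference grafts, against 3.85 and 3.79 in low-difference grafts. Irf1, the factor through which many of them are induced, was lower by little, at -1.02 and -0.92 in high-difference grafts, against -0.74 and -0.67 in low-difference grafts. With normexp the median of the type I list was -0.43, against -0.74 as processed here, and that of the interferon-gamma list -0.48, against -0.71.

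Chemokines that draw lymphocytes were lower on both high-difference arrays. Cxcl9 had log2 levels of -4.93 and -4.47 in high-difference grafts, against -1.33 and -2.27 in low-difference grafts. Cxcl10, a ligand of the same T cell receptor CXCR3, had log2 levels of 0.73 and 0.64 in high-difference grafts, against 2.05 and 1.93 in low-difference grafts. Ccl19, which guides dendritic and naive T cells, had log2 levels of 1.91 and 0.63 in high-difference grafts, against 4.68 and 4.21 in low-difference grafts (difference -3.18 ± 0.86). All 3 were clear of the low-difference arrays, as was Calhm6, an interferon-induced channel gene, at -4.41 and -4.18 in high-difference grafts, against -1.59 and -1.67 in low-difference grafts. With normexp the log2 differences were -1.57 for Cxcl9 and -1.52 for Calhm6, against -2.90 and -2.67 as processed here.

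Promoters of 4 of these genes are shown because they hold the core of the interferon-stimulated response element, searched on both strands as TTTC, any 2 bases and TTTC again. They are again the 250 bases before the RefSeq start in GRCr8, on the gene's strand, with the match in capitals. Irf7 lies on chr1:205800024-205800273 (-), Gbp2 on chr2:234005477-234005726 (+), Calhm6 on chr20:26640392-26640641 (-) and Ccl19 on chr5:61761165-61761414 (-).
Irf7: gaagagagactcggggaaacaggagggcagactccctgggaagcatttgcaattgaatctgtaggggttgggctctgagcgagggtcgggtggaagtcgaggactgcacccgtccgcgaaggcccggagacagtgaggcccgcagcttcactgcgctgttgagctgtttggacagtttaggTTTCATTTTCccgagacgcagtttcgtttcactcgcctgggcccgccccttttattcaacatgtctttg
Gbp2: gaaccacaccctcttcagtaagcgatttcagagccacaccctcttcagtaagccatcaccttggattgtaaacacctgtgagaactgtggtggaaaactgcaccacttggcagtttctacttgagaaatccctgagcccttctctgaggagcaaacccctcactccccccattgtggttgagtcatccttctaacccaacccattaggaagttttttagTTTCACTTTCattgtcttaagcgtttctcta
Calhm6: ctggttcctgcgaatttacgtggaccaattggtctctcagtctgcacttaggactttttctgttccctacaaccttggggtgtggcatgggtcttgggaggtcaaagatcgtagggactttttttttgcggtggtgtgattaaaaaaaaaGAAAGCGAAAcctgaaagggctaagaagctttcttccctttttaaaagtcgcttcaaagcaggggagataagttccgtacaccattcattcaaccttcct
Ccl19: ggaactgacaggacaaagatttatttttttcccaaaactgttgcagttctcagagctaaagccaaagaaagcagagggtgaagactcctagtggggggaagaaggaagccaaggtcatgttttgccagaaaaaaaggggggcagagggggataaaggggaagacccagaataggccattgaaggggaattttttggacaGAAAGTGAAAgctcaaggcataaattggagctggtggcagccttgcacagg
The letters stood in 13 of 20 promoters of the type I list and in 9 of 15 of the interferon-gamma list, against 3.41% of all promoters in the table. They also stood in 7 of 15 promoters of the class I list, 4 of 12 promoters of the NK list, 7 of 21 promoters of the macrophage list and 0 of 22 of the T cell list. The 2 interferon lists were assembled from genes known to answer it, so their share describes the lists and not these grafts.

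The IL-6 family, against whose receptor 1 treated arm of the series was directed, showed no common direction. Il6 was not well above background on any of the 4 arrays. Cntf, ciliary neurotrophic factor, had log2 levels of 1.97 and 2.32 in high-difference grafts, against 0.39 and 0.56 in low-difference grafts (difference 1.67 ± 0.21, adjusted p = 0.209). Clcf1, another ligand of the family, had log2 levels of 1.35 and 2.53 in high-difference grafts, against 0.01 and -0.02 in low-difference grafts. Both ligands were higher with a clear gap. Il6st, the shared receptor subunit, was lower at -0.25 and 0.10 in high-difference grafts, against 0.47 and 0.58 in low-difference grafts. Il6r, the receptor chain for IL-6, was lower at -1.53 and -1.47 in high-difference grafts, against -1.17 and -1.22 in low-difference grafts.

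Cell death genes were split. Ripk3, a kinase of necroptosis, was higher with a clear gap, at 4.03 and 4.28 in high-difference grafts, against 1.85 and 3.01 in low-difference grafts. Zbp1, a nucleic acid sensor that acts on it, was lower, at -4.99 and -4.53 in high-difference grafts, against -1.74 and -1.66 in low-difference grafts (difference -3.06 ± 0.33, adjusted p = 0.209, and -1.50 with normexp). The inflammasome sensor genes Aim2 and Nlrp3 were dim on both high-difference arrays and at least 3.38-fold and 2.83-fold lower in high-difference grafts. Of the neutrophil list, 10 of 20 genes reached the filter in no group. Of the 10 tested, 7 lay above 0 and 3 below, where 53.9% of all tested genes with a symbol lay above 0. Their median log2 difference was 0.85, which was 0.51 with normexp and 0.19 without high-difference array 1, and 0 passed. S100a9, a calprotectin chain, had log2 levels of -1.63 and -2.49 in high-difference grafts, against -3.35 and -3.01 in low-difference grafts. Lcn2, which injured tubule also makes, had log2 levels of -1.93 and 0.31 in high-difference grafts, against -3.92 and -2.82 in low-difference grafts. Both were higher without overlap.

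Hormone-linked and clock genes gave mixed values. Igf1 had log2 levels of 1.59 and 0.58 in high-difference grafts, against 2.68 and 2.70 in low-difference grafts, lower with a clear gap, as was its carrier Igfbp3. Ghr, the growth hormone receptor, was nearer at 2.05 and 2.02 in high-difference grafts, against 2.48 and 2.27 in low-difference grafts. Of the genes that glucocorticoids induce, Fkbp5 overlapped at 3.37 and 3.82 in high-difference grafts, against 3.83 and 3.67 in low-difference grafts. Angptl4, which also answers lipid and hypoxia signals, was higher with a clear gap at 2.60 and 3.13 in high-difference grafts, against 0.48 and 0.67 in low-difference grafts. Mt1, a metallothionein, stood at 7.0 and 7.74 in high-difference grafts, against 4.87 and 6.2 in low-difference grafts. Among clock genes, Bmal1, an activator of the loop, was higher, at -0.40 and -1.80 in high-difference grafts, against -2.59 and -2.17 in low-difference grafts. Per2, a repressor that the loop drives, was lower, at -0.31 and -0.17 in high-difference grafts, against 1.19 and 0.62 in low-difference grafts. Nfil3, which represses at the sites where TEF activates, was higher, at -0.39 and 0.17 in high-difference grafts, against -1.69 and -1.45 in low-difference grafts. Tef itself was lower, at -2.27 and -1.94 in high-difference grafts, against -0.69 and -1.25 in low-difference grafts. The hours of surgery and collection are not given in the labels, and their part was not tested.

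When the spread was estimated without the prednisolone arrays, limma called 28 genes, 7 higher and 21 lower in high-difference grafts. The 8 genes with a symbol and the smallest p were all lower: Gfi1, a factor of lymphoid and myeloid maturation, Aim2, Ctsw, a protease of cytotoxic cells, Calhm6, Zbp1, Cytl1, Art2b, a surface enzyme of rat T cells, and Gp6. Their adjusted p lay between 0.0313 and 0.0409. Calhm6 and Zbp1 were well above background on all 4 arrays, with log2 differences of -2.67 and -3.06. The other 6 genes were dim on both high-difference arrays, so that their calls rest on signals not well above background, and they were at least 1.21-fold (Cytl1) to 3.38-fold (Aim2) lower in high-difference grafts. With normexp and all 8 arrays the log2 differences of these 6 were between -0.59 and -0.20. Chac1, Fosl1, Cyp3a9 and Krt20, the last dim on both low-difference arrays, were among the 7 higher. In the fit of the 4 untreated arrays alone, which lay on 1 slide, limma called 0 genes.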

How the data were processed

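Total RNA of 8 grafts, 2 per group, was amplified from 1 µg, labelled with Cy3 and hybridised to 1-colour Agilent rat arrays. Per the file headers, the authors deposited Feature Extraction 9.5.1.1 output, in which each spot has a background-subtracted processed intensity. A table of scaled intensities for the same arrays, deposited by the authors, was put on the log2 scale and served as an alternative. Control spots and spots with an outlier flag were left out, spots of a probe were averaged, and log2 intensities were scaled by the 75th percentile of each array. Of 41012 probes, 765 without an unflagged spot on some array were left out, and 28685 passed the filter, with both arrays of some group well above background. The probe with the highest mean over 8 arrays stood for a gene. Symbols came from RefSeq tables matched by accession (10793 probes), symbol (5572), synonym (3719) or gene number (1212), while 19716 probes kept the name in the file. High minus low was fitted on all 8 arrays with lmFit and eBayes of limma 3.58.1 in R 4.3.3, with Benjamini-Hochberg adjustment over 24436 genes. The fit was tested on simulated data. The p-values measure the spread between samples of a group, pooled over the 4 groups. The members of the 57 lists, 1292 of 1378 genes with a value, and the rules were chosen with earlier results of these data known, so no list adds independent support. Named genes were, by rule, the 15 largest differences each way with a gap above 1 log2 unit and above the range within groups, the 6 largest bounds each way, the first 6 members and the 4 with the smallest p of each list, members against their list, the 8 leading genes called in an alternative fit, and genes whose promoter is shown. Some genes that these rules pick are not reported here. A fold written as at least N sets the brighter group's mean against the dim group's higher of its own signal and the lowest signal well above background on each array. The 9 promoter motifs were searched in 33469 RefSeq promoters of GRCr8. Alternatives were the normalization, the background correction, the filter, the probe rule, the arrays in the fit, array weights, the replicate block and leaving out each array.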

Additional observations from a re-analysis of the deposited data

How the results depend on the processing

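With all 8 arrays 0 genes were called, and 0 were called with normexp background correction, the authors' value table, no filter or a strict filter on dim probes, the mean over probes, the 4 untreated arrays alone, the anti-IL6R arrays left out or eBayes with a trend. With outlier spots kept or the dark patch left out, both chosen after seeing the data, limma called 0 genes. Quantile normalization called 3 genes, array quality weights 1, and the fit without the prednisolone arrays 28. Leaving out 1 array gave 0 to 39 called genes. The 39 came without high-difference replicate 1, with 3 higher and 36 lower, and with the dark patch of high-difference array 2 also left out, an alternative chosen after seeing the data, 0 were called. At an unadjusted p under 0.05 leaving out 1 array gave 507 to 3017 genes higher and 827 to 2700 lower. Of these, 564 higher and 859 lower came without high-difference replicate 2, and 507 and 827 without low-difference replicate 1. There were 1282 higher without the anti-IL6R group, and 949 lower with normexp and 2700 lower without the prednisolone group. Clear gaps numbered 89 to 509 higher and 341 to 1112 lower when 1 array was left out, which leaves fewer arrays to separate: 509 and 1112 without high-difference replicate 1, 202 higher without high-difference replicate 2, 651 lower without low-difference replicate 1, and 467 and 888 without low-difference replicate 2. With the replicate block 0 genes were called, with 1483 higher and 1379 lower at an unadjusted p under 0.05. The deviations of same-numbered high-difference and low-difference arrays correlated at -0.0086 across genes. Those of the low-difference arrays correlated at 0.366 with the anti-IL6R arrays and at -0.351 with the prednisolone arrays. These values alone do not show whether the replicate numbers paired the samples. The block changed no call.

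Medians over the tested members of a list moved as follows. With normexp they were -0.56 for intercalated cells, -0.17 for T cells, -0.46 for NK cells, -0.088 for dendritic cells, 0.027 for B cells, -0.83 for chemokines, -0.43 for type I interferon and -0.48 for interferon-gamma, where normexp moved the median of all tested genes with a symbol to 0.10. With quantile normalization the proteasome median was 0.28. With the strict filter the NK median was -1.49 and the dendritic cell median 0.25, and with the mean over probes the NK median was -1.53. Leaving out 1 array gave ranges of 0.30 to 0.78 for tRNA synthetases, -0.0105 to 0.52 for p53 targets, 0.017 to 0.69 for immediate early factors and 0.29 to 1.06 for keratins. The ranges were -0.18 to 0.27 for TNF and IL-1, -0.41 to -0.046 for the citrate cycle, -0.044 to 0.49 for sterol synthesis and -1.02 to -0.39 for endothelial adhesion. For immune lists they were -1.96 to -0.95 for macrophages, -1.85 to 0.068 for B cells, 0.19 to 1.42 for neutrophils, -2.30 to -1.03 for MHC class II and -0.55 to -0.029 for class I. They were 0.014 to 1.71 for DNA replication, -0.72 to -0.15 for other tissues and -1.17 to -0.52 for kidney identity. The remaining list medians moved by less than the spread between replicates, which for several was still over 1.5 times when 1 array was left out. Such ranges were -1.16 to -0.61 for gluconeogenesis, -0.98 to -0.45 for cytochrome P450, -0.69 to -0.17 for fatty acid oxidation, -0.88 to -0.38 for collecting duct, -0.73 to -0.20 for endothelium, 0.060 to 0.59 for the EGF family, 0.097 to 0.25 for glycolysis, -0.0037 to 0.35 for claudins and -0.083 to 0.26 for ER chaperones. Among others, the ranges were also -0.69 to 1.19 for mitosis, 0.067 to 1.01 for acute-phase genes and -0.015 to 0.53 for glucocorticoid targets. They were -0.59 to -0.045 for the circadian clock, -0.58 to -0.16 for podocytes and -0.54 to 0.023 for proximal solute carriers. The causes of these moves were not tested.

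Of 181 named genes, 168 kept their direction in every alternative. With normexp 40 of 181 log2 differences were over 1.5 times smaller and 3 over 1.5 times larger, and among those well above background on all 4 arrays were Zbp1 at -1.50, Cxcl9 at -1.57, Calhm6 at -1.52 and Cd3g at -1.62. Of genes dim in 1 group, normexp gave 3.23 for Krt20 and 1.61 for Trh, which are higher, and -0.98 for Or5al7, -0.78 for Itgal and -0.20 for Gfi1, which are lower. The direction turned for Cubn, at -0.026 with quantile normalization and -0.018 with normexp, and for Ddit3, at -0.024 with quantile normalization and -0.027 with normexp. Leaving out 1 array turned the sign within the ranges of -0.0085 to 1.89 for C3, -0.73 to 1.41 for Cdk1, -0.12 to 0.23 for Cubn, -0.29 to 0.32 for Ddit3, -0.38 to 0.064 for Fkbp5 and -0.28 to 0.52 for Gclm. The ranges were -1.80 to 0.034 for Hspa5, -0.11 to 0.51 for Mdm2, -0.88 to 1.18 for Mki67, -0.32 to 0.11 for Nphs1, -0.78 to 0.13 for Slc26a4, -0.24 to 0.98 for Slc5a2 and -0.19 to 0.071 for Tap2.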

Other observations

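Vasoactive and claudin genes have not been described above. Angiotensin receptor 1a (Agtr1a) had log2 levels of 1.39 and 0.14 in high-difference grafts, against 1.71 and 2.09 in low-difference grafts, although 1 other probe of the gene pointed the other way. Ednrb, a receptor for endothelin, had log2 levels of -1.08 and -1.49 in high-difference grafts, against -0.51 and -0.56 in low-difference grafts. Npr3, the clearance receptor of natriuretic peptides, had log2 levels of -2.46 and -3.64 in high-difference grafts, against -1.73 and -1.82 in low-difference grafts. All 3 were lower and lowest on high-difference array 2, and the renin, endothelin and prostaglandin list as a whole had 17 of 24 tested members below 0 (median -0.56). Ace, the angiotensin-converting enzyme of the brush border and vessels, lay the other way at -1.12 and -1.12 in high-difference grafts, against -1.42 and -1.58 in low-difference grafts. Among claudins, Cldn1, of parietal epithelium, had log2 levels of 0.15 and -0.16 in high-difference grafts, against -1.14 and -0.92 in low-difference grafts. Cldn14, which limits calcium uptake in the thick limb, had log2 levels of -2.94 and -2.86 in high-difference grafts, against -4.09 and -3.43 in low-difference grafts. Both were higher without overlap, in a list with a median of 0.21.

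Of the TNF and IL-1 list, receptors and a cytokine lay on opposite sides. Tnfrsf12a, the receptor for TWEAK, had log2 levels of 5.39 and 6.13 in high-difference grafts, against 4.15 and 4.41 in low-difference grafts. Tnfrsf1a, a receptor for tumour necrosis factor, had log2 levels of 4.42 and 4.59 in high-difference grafts, against 3.37 and 3.79 in low-difference grafts. Il1b, a cytokine of myeloid cells, was lower at -1.51 and -1.86 in high-difference grafts, against -0.96 and -0.91 in low-difference grafts. These receptors and Il1b did not overlap between the groups, and 0 of the list passed. Sterol synthesis genes had 21 of 25 tested members above 0 (median 0.23). Hepcidin (Hamp), the iron hormone, stood at -4.04 and -4.64 in high-difference grafts, against -5.17 and -5.57 in low-difference grafts.

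The lists for cells outside the tubule and vessel were small or mostly dim. Of 10 B and plasma cell genes 3 were tested. Their median log2 difference was -1.08 over the tested genes and -0.10 over those with a usable probe. Of 11 dendritic cell genes 9 were tested, with a median of -0.77 over the tested genes and 0.18 over those with a usable probe. The list for urothelium, fat, muscle, liver, adrenal, red and mast cells had 9 of 18 members tested, with a median of -0.35 over the tested genes.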
